A study of Mus musculus with 4 samples.

Results

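6 genes of the neuronal cytoskeleton and growth cone, Tubb2b, Tubb3, Tubb5, Dpysl3, Gap43 and Dcx, were followed in the cortex and corpus callosum of mice in which the hedgehog pathway had been switched on in Pdgfra-expressing cells. They were found by symbol among the 5282 genes of a table that the authors had filtered by p-value, and all 6 had a row. They were selected on the authors' log2 fold change and adjusted p between the groups in this table, so their levels are given as a description and no test of that difference is offered.

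The SmoM2 group was 2 samples of genotype Pdgfra-creER;SmoM2, and the wild type (WT) group was 2 samples. All 4 samples were dissected corpus callosum plus cortex at postnatal day 15, from mice given tamoxifen between postnatal days 5 and 7. The SmoM2 allele encodes a Smoothened, the transducer of hedgehog signals, that is always on, and the tamoxifen-inducible Cre acts in cells that express Pdgfra, chiefly oligodendrocyte precursors and fibroblasts, and not in neurons as a class. The labels do not say whether the 2 samples of a group came from separate mice or from pools, so the spread between them may be technical. Each gene has 1 expression level per sample, which appears from its values to be scaled per length and per library. The sources used here do not say if the unit is TPM or FPKM, and without read counts the depth is unknown.

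Microtubules are polymers of alpha- and beta-tubulin dimers. Mammals carry several genes for each, and the beta-tubulin genes differ in when and where neurons use them: Tubb3 is the neuronal class III isotype, Tubb2b is prominent in migrating and differentiating neurons, and Tubb5 is a widely expressed isotype that is abundant in the developing brain. A growth cone is the motile tip of an extending axon. Dcx, doublecortin, binds and stabilises microtubules in migrating young neurons. Dpysl3 encodes CRMP4, a member of the collapsin response mediator protein family that couples guidance signals to the cytoskeleton, and Gap43 encodes a membrane-bound phosphoprotein that is enriched in growth cones. Levels of these genes normally decline in the cortex as neurons mature, although some remain in use in adult neurons.

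The sequence just upstream of 2 beta-tubulin members, Tubb3 and Tubb5, is shown. The RefSeq promoter table (GRCm38.p6) held 3 of the 6 members, without Tubb2b, Dpysl3 and Gap43. Dcx, the third that it held, is not printed. All 6 members were higher in SmoM2, so that change does not set these 2 apart. The stretches end just before the gene's own first annotated base in GENCODE M21, although that of Tubb3 lies within the span of the same-strand gene Gm20388, and read 5′ to 3′ on the gene's strand. Capitals mark matches to the E-box, spelled CANNTG, to the box spelled CCAAT, to the GC box, spelled GGGCGG, or to the TATA motif, spelled TATAA, all searched on both strands.
Tubb3, chr8:123411303-123411423, plus strand: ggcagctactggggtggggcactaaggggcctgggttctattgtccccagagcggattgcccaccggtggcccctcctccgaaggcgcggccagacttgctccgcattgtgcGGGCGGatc
Tubb5, chr17:35838307-35838551, minus strand: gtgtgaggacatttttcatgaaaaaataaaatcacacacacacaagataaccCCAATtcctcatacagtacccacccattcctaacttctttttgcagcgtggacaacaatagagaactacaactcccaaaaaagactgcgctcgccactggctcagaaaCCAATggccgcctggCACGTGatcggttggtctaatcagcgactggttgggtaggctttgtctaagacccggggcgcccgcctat

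In these letters Tubb3 held 1 GC box, and Tubb5 held 2 CCAAT boxes and 1 E-box. Over the full 250 bases upstream of the RefSeq start, Tubb3 had 2 GC box, 1 CCAAT and 2 TATA matches. The Gli consensus GACCACCCA, the site bound by the transcription factors of the hedgehog pathway, was searched on both strands too and had no match in the 250 bases of Tubb3, Tubb5 or either Dcx start. It was present in 0.225% of the 32851 promoter windows of that length, against 66.2% for the E-box, 33.9% for CCAAT, 32.7% for the GC box and 22.8% for TATAA. No match says only that these letters are not in this window.

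All 6 genes lie at distinct loci in GRCm38 (GENCODE M21 annotation). Tubb2b (ENSMUSG00000045136) is on chromosome 13 from 34126748 to 34130466, Tubb3 (ENSMUSG00000062380) on chromosome 8 from 123411424 to 123422015, and Tubb5 (ENSMUSG00000001525) on chromosome 17 from 35833921 to 35838306. Dpysl3 (ENSMUSG00000024501) is on chromosome 18 from 43320984 to 43438286, Gap43 (ENSMUSG00000047261) on chromosome 16 from 42248442 to 42340651, and Dcx (ENSMUSG00000031285) on chromosome X from 143855842 to 143933311. Tubb3 lies on the plus strand and the other 5 on the minus strand.

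Each of the 3 tubulin members was higher in both SmoM2 samples than in both WT samples. Tubb2b read 742 and 733 in SmoM2 replicates 1 and 2, against 341 and 288 in WT replicates 1 and 2. The SmoM2 samples were nearly equal and more than 2 times either WT sample. Its mean level was 737 ± 6.57 in SmoM2, against 314 ± 37.8 in WT (SD, n = 2 each), a ratio of 2.35, and its log2 difference of 1.23 ± 0.11 (SE, limma, on log2(level + 1)) was the largest of the 6 members.

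Tubb3 read 1125 and 1167 in SmoM2, against 626 and 670 in WT, a ratio of mean levels of 1.77 and a log2 difference of 0.82 ± 0.09 (SE, limma). Tubb5 read 1002 and 1028 in SmoM2, against 660.3 and 660.4 in WT, a ratio of 1.54 and a log2 difference of 0.62 ± 0.09 (SE, limma). For both genes the replicates of a group lay close together and the groups were far apart. Tubb3 ranked 65 and Tubb5 ranked 69 by mean level among the 5282 listed genes, so both are among the most abundant listed transcripts.

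The growth cone members were also higher in both SmoM2 samples. Dpysl3 read 170 and 149 in SmoM2, against 74.4 and 70.1 in WT. Both SmoM2 samples were above 2 times the WT level, with replicate 1 the higher of them. The ratio of its mean levels was 2.21 and its log2 difference was 1.13 ± 0.10 (SE, limma), next to that of Tubb2b. Gap43 read 952 and 821 in SmoM2, against 547 and 570 in WT. The groups did not overlap, the ratio was 1.59, and the log2 difference was 0.66 ± 0.11 (SE, limma).

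Dcx was by far the lowest of the 6 and the least even. It read 21.5 and 14.2 in SmoM2, against 11.9 and 14.0 in WT. SmoM2 replicate 1 stood above the other 3 samples, while SmoM2 replicate 2 and WT replicate 2 were almost the same. Its log2 difference was 0.41 ± 0.21 (SE, limma). Without SmoM2 replicate 1 it was 0.12, and without SmoM2 replicate 2 it was 0.69, so its size depends on which SmoM2 sample is used.

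**Figure D1:**
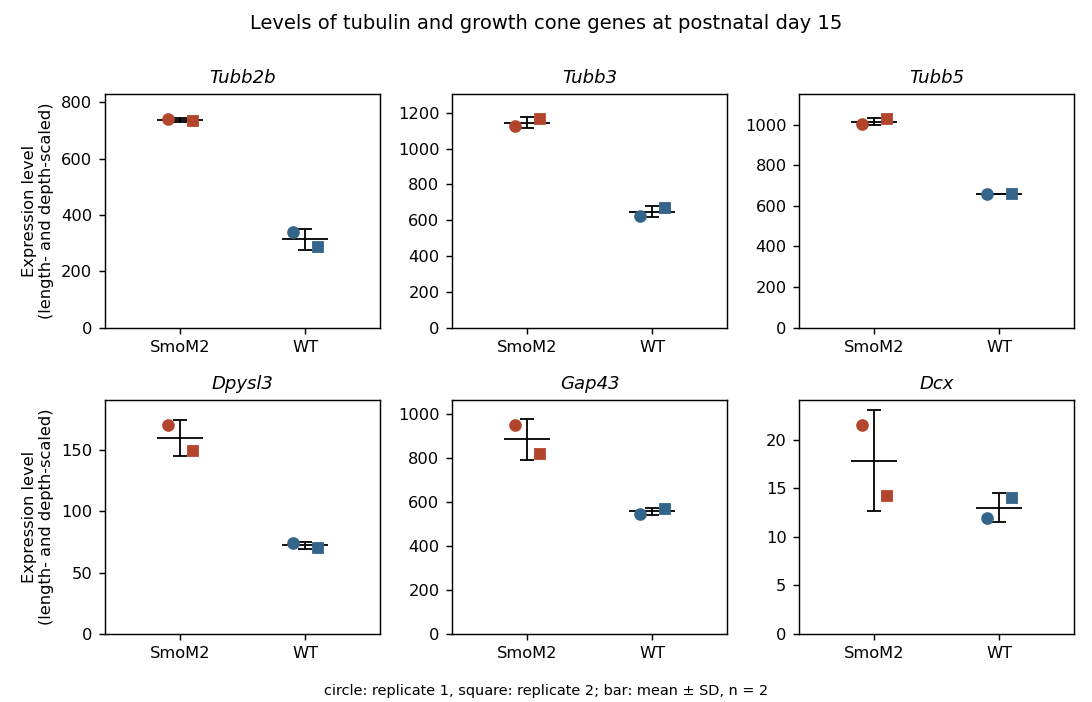
Expression level (vertical axis, length- and depth-scaled units, starting at 0) of each of the 6 genes in the 2 SmoM2 samples (left, red) and the 2 WT samples (right, blue); circles are replicate 1, squares replicate 2, and bars give the mean ± SD. The groups are far apart for 5 genes, whereas for Dcx SmoM2 replicate 2 (14.2) lies next to WT replicate 2 (14.0).

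In the authors' deposited table all 6 are listed as higher with an adjusted p not above 0.05 and with log2 fold changes of 1.16 for Tubb2b, 0.98 for Dpysl3, 0.75 for Tubb3, 0.59 for Gap43, 0.55 for Tubb5 and 0.37 for Dcx. These are the values on which the genes were chosen. Of all 5282 listed genes, 37.3% passed that threshold, and 21.3% passed it as higher. Both SmoM2 levels lay above both WT levels in 49.5% and below both in 35.2%. Since this contrast chose the members, nothing is read from their count beside these shares. "Rose" and "fell" below refer to this threshold in the authors' deposited table. The 6 members had a median log2 difference of 0.74 (limma), beside 0.25 over the 4845 listed genes whose mean level reached 1. The median log2 level of those genes was itself 0.09 higher in SmoM2 than in WT.

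**Figure D2:**
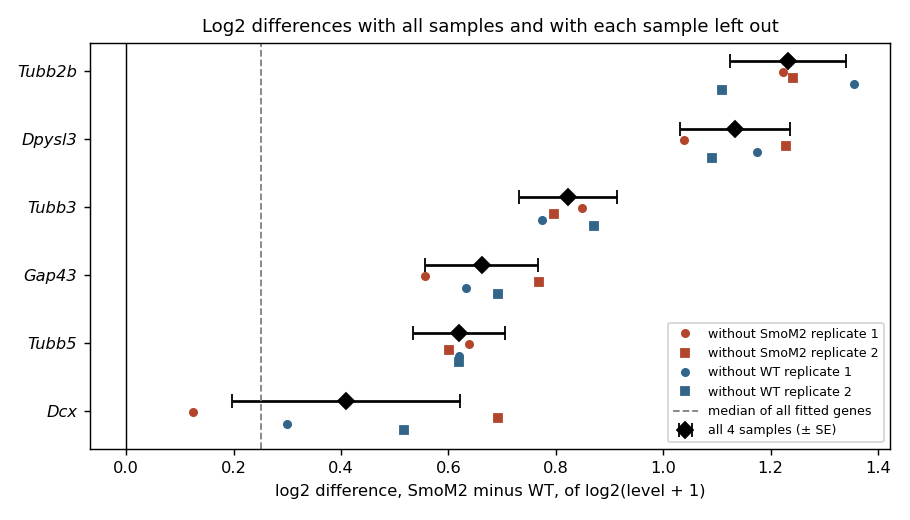
Log2 difference, SmoM2 minus WT (horizontal axis), of each gene with all 4 samples (diamonds, ± SE from limma) and with each sample left out in turn (circles and squares; red for a SmoM2 sample, blue for a WT sample); the dashed line is the median of all fitted genes, 0.25. Dcx spreads from 0.12 to 0.69, whereas Tubb5 stays between 0.60 and 0.64.

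Leaving out any sample kept all 6 differences above 0, as it must where both SmoM2 levels lie above both WT levels. The range over the 4 omissions was 1.11 to 1.35 for Tubb2b, 1.04 to 1.23 for Dpysl3, 0.77 to 0.87 for Tubb3, 0.56 to 0.77 for Gap43 and 0.60 to 0.64 for Tubb5. Within the SmoM2 group, Dcx, Gap43 and Dpysl3 were higher in replicate 1, with log2 ratios of replicate 1 over replicate 2 of 0.57, 0.21 and 0.19. Tubb3 and Tubb5 were slightly lower there, at -0.05 and -0.04, and Tubb2b was about equal at 0.02. The ratio of Dcx was larger in size than that of 94.1% of the fitted genes, whose median absolute ratio in SmoM2 was 0.13. Relative to Tubb3, Dcx came to 1.91% and 1.22% in the SmoM2 samples, against 1.90% and 2.09% in the WT samples.

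The member beta-tubulins belong to a larger family, and every listed beta-tubulin rose. Of 8 beta-tubulin genes, 5 had a row; Tubb1, Tubb4a and Tubb4b had none and were not analysed here. Tubb2a, the close relative of Tubb2b and the most abundant of the listed beta-tubulins, read 2759 and 3036 in SmoM2, against 1967 and 2008 in WT, with a log2 difference of 0.54 ± 0.11 (SE, limma). Tubb6, a low-level class V isotype in these samples, read 8.80 and 7.80 in SmoM2, against 4.05 and 2.76 in WT, with a log2 difference of 1.09 ± 0.21. The median log2 difference of the 5 was 0.82, the value of Tubb3 itself, beside 0.25 for all fitted genes. Tubb2b, Tubb3 and Tubb5 were chosen on this contrast, so only Tubb2a and Tubb6 lie outside that choice.

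The 5 listed beta-tubulins together summed to 5636 and 5971 in SmoM2, against 3598 and 3629 in WT. Within that sum the composition differed. Tubb2b made up 13.2% and 12.3% in SmoM2, against 9.48% and 7.93% in WT. Tubb3 made up 20.0% and 19.5% in SmoM2, against 17.4% and 18.5% in WT. Tubb2a made up 48.9% and 50.8% in SmoM2, against 54.7% and 55.3% in WT. The share of Tubb5 was 17.8% and 17.2% in SmoM2, against 18.3% and 18.2% in WT. Tubb2b and Tubb3 thus had larger shares, and Tubb2a and Tubb5 smaller shares, in both SmoM2 samples than in both WT samples. These shares restate the levels on which the members were chosen and are not a separate result. The total also lacks Tubb1, Tubb4a and Tubb4b, which had no row. With the 3 member genes alone as the total, the share of Tubb3 was 39.2% and 39.9% in SmoM2, against 38.5% and 41.4% in WT. These overlap: SmoM2 minus WT was -0.40 percentage points, but 1.06 without WT replicate 2 and -1.86 without WT replicate 1.

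**Figure D3:**
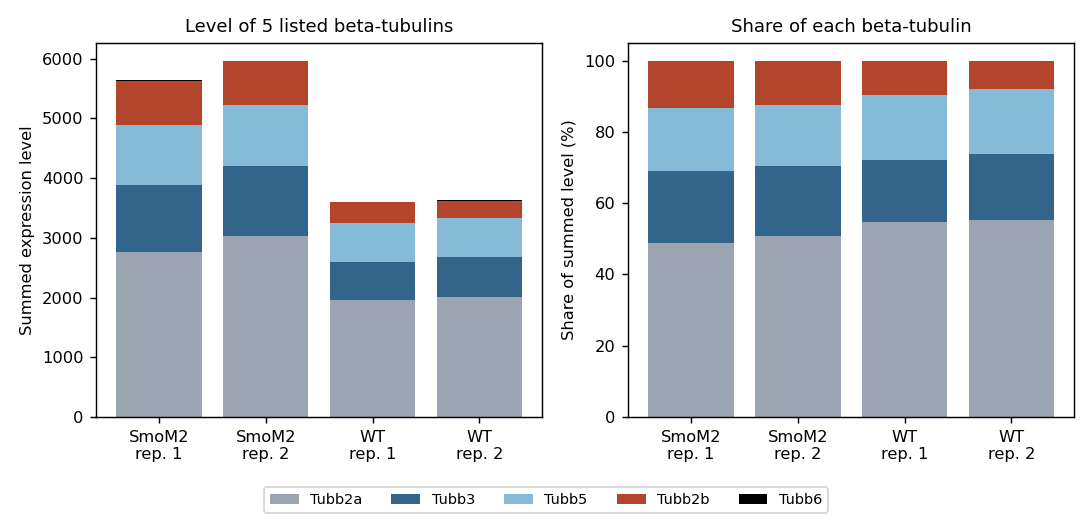
Summed expression level of the 5 listed beta-tubulins (left panel, level units) and the share of each in that sum (right panel, percent) in each sample, SmoM2 replicates first. The sum is 5636 and 5971 in SmoM2 and 3598 and 3629 in WT, and Tubb2b (red) takes 13.2% and 12.3% in SmoM2 and 9.48% and 7.93% in WT; Tubb6 (black) is too low to see.

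Reads of near-identical tubulin genes cannot always be told apart. Of the distinct 50-base stretches in annotated Tubb2b transcripts, 36.9% also occurred in transcripts of another gene, 31.3% in those of Tubb2a. For Tubb2a the share was 49.6%, with 45.6% in Tubb2b, so the separate levels of this pair are uncertain. The sum of their levels, which a different split would also move because the transcripts differ in length, was 3501 and 3768 in SmoM2, against 2308 and 2296 in WT, a ratio of 1.58. Tubb3, Gap43 and Dpysl3 shared no such stretch with another gene, Tubb5 shared 0.089% and Dcx 0.181%.

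Alpha-tubulins are the partners in the dimer. Of 8 genes, 2 had a row and both rose. Tuba1a, the main alpha-tubulin of developing neurons, read 5034 and 5402 in SmoM2, against 3559 and 3499 in WT, with a log2 difference of 0.56 ± 0.11 (SE, limma). Tuba1b read 1348 and 1491 in SmoM2, against 1102 and 1100 in WT, with a log2 difference of 0.36 ± 0.10. With quantile normalization the differences were 0.87 for Tuba1a and 0.21 for Tuba1b. These transcripts overlap even more, with 72.9% of Tuba1a and 66.7% of Tuba1b 50-base stretches found in another gene. The sum of the 2 alpha-tubulins over the sum of the 5 beta-tubulins was 1.13 and 1.15 in SmoM2, against 1.30 and 1.27 in WT. Both sums lack the tubulins without a row, and the beta sum includes members chosen on this contrast. The ratio is therefore not that of all alpha- to all beta-tubulins. Of 4 gamma-, delta- and epsilon-tubulins, which serve nucleation and centrioles, Tubg1 and Tubg2 had a row and neither passed. Tubg1 averaged 59.9 ± 7.89 in SmoM2, against 47.4 ± 2.82 in WT, and Tubg2 averaged 68.8 ± 7.16 in SmoM2, against 51.7 ± 4.86 in WT (SD, n = 2 each).

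Among proteins that fold and modify tubulin, the listed genes moved in both directions. Of 7 folding cofactor genes, 4 had a row, 3 were higher and Tbcc, which acts late in dimer assembly, rose, at 44.3 and 43.1 in SmoM2, against 27.8 and 31.4 in WT. Of 26 tubulin-modifying enzyme genes, 9 had a row, 4 rose and 2 fell. Vash1, which removes the terminal tyrosine of alpha-tubulin, read 27.8 and 21.1 in SmoM2, against 12.5 and 13.8 in WT, with a log2 difference of 0.83 ± 0.16 (SE, limma). Atat1, the alpha-tubulin acetyltransferase, read 78.4 and 86.8 in SmoM2, against 60.2 and 60.4 in WT. Agbl5, a deglutamylase, and Tpgs1, a subunit of the polyglutamylase complex, were the other members that rose, with log2 differences of 0.70 ± 0.18 and 0.44 ± 0.12; without WT replicate 2 that of Tpgs1 was 0.28. The members that fell were Ttll7, a polyglutamylase, and Sirt2, a deacetylase that oligodendrocytes express strongly. Both were sensitive to single samples: Ttll7 had a log2 difference of -0.31 that was -0.48 without WT replicate 1 and -0.15 without WT replicate 2, and Sirt2 had -0.26 that was -0.14 without SmoM2 replicate 1.

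The listed members of the family of Dpysl3 were all higher, by differing amounts. Of 5 CRMP genes, 4 had a row and all 4 rose, including Dpysl3, which was chosen on this contrast. Dpysl2 had no row and was not analysed here. Dpysl5 read 129 and 122 in SmoM2, against 62.3 and 63.1 in WT, with a log2 difference of 0.99 ± 0.09 (SE, limma), close to that of Dpysl3. Crmp1 read 460 and 456 in SmoM2, against 286 and 311 in WT, with a log2 difference of 0.62 ± 0.09. Dpysl4 read 82.6 and 100.6 in SmoM2, against 66.8 and 72.7 in WT, with a log2 difference of 0.38 ± 0.12 that was 0.24 without SmoM2 replicate 2. No 50-base stretch of these 4 genes occurred in another gene, so reads of that length would tell them apart.

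The family of Dcx did not move together. Of 6 genes, 4 had a row, and Dcx was the member that passed. Dclk2, a doublecortin-like kinase, averaged 56.4 ± 0.912 in SmoM2, against 45.02 ± 0.700 in WT, while Dclk1, the kinase most similar to Dcx, averaged 279 ± 9.52 in SmoM2, against 314 ± 14.3 in WT (SD, n = 2 each). Dcdc2a averaged 5.29 ± 1.80 in SmoM2, against 9.02 ± 1.17 in WT. The median log2 difference of the 4 was 0.08, below the 0.25 of all fitted genes, and it was -0.00 without SmoM2 replicate 1.

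Proteins that work beside Gap43 at the growth cone membrane and its actin were mostly higher. Of 29 genes, 23 had a row, 18 were higher, beside 53.2% of all listed genes, and 15 rose, Gap43 and Crmp1 included, while 3 fell; the median log2 difference was 0.43. L1cam, an axonal adhesion molecule, read 102 and 115 in SmoM2, against 63.1 and 73.2 in WT, with a log2 difference of 0.67 ± 0.12 (SE, limma). Vasp, which promotes actin filament elongation, read 19.7 and 17.5 in SmoM2, against 12.1 and 11.5 in WT. Basp1 and Marcksl1, which share with Gap43 the binding of membrane phosphoinositides, rose by 0.34 ± 0.09 and 0.49 ± 0.09 on the log2 scale, or by 0.19 and 0.27 with quantile normalization. The 3 that fell were Cap2, Gpm6a and Gpm6b, an actin regulator and a pair of related membrane proteins, with log2 differences of -0.35, -0.28 and -0.38. The count of 18 higher was 18 whichever sample was left out, as it must be, since no listed gene of this group overlapped between SmoM2 and WT.

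Microtubule-associated proteins and stathmins, which bind the polymer or its subunits, had 10 of 23 members with a row, of which 5 rose and 2 fell. Camsap3, which binds microtubule minus ends, read 38.0 and 38.6 in SmoM2, against 21.7 and 28.1 in WT, with a log2 difference of 0.62 ± 0.14 (SE, limma). Mapt, the tau gene, read 221 and 246 in SmoM2, against 165 and 174 in WT, with a log2 difference of 0.45 ± 0.10. Map6 and Clip2 had log2 differences of 0.37 and 0.40. The fifth to rise was Stmn3, a stathmin, and the 2 that fell were Map7 and Map9, with log2 differences of -0.27 and -0.25. That of Map9 was -0.12 without WT replicate 2 and -0.38 without WT replicate 1. Of 19 kinases and regulators of growth cone proteins, 8 had a row, 2 rose and 1 fell. Mapk8ip1, a scaffold of the JNK pathway, read 357 and 358 in SmoM2, against 256 and 255 in WT, and Cdk5r2, an activator of the kinase Cdk5, averaged 555 ± 16.1 in SmoM2, against 416 ± 56.7 in WT. Rock2, a kinase that promotes actomyosin contraction, fell with a log2 difference of -0.37 that was -0.56 without WT replicate 1 and -0.18 without WT replicate 2.

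Of 19 genes of mature axons and synapses, 4 had a row, 0 rose and 2 fell. The other 2, Slc12a5, a chloride transporter of neurons, and Sncb, beta-synuclein, did not pass, with log2 differences of 0.34 and 0.36 and both SmoM2 levels above both WT levels. Snap25, a protein of synaptic vesicle fusion, read 1285 and 1277 in SmoM2, against 1485 and 1794 in WT, with a log2 difference of -0.35 ± 0.12 (SE, limma) that was -0.21 without WT replicate 2. Syt1, the calcium sensor of transmitter release, read 525 and 552 in SmoM2, against 571 and 672 in WT, with a log2 difference of -0.20 ± 0.11 that was -0.08 without WT replicate 2 and -0.32 without WT replicate 1. Over the pathway genes outside the 6 members, counted once each, 68 of 147 had a row, 48 of these were higher, 32 rose and 10 fell. Their median log2 difference was 0.36, beside 0.25 for all fitted genes. Of all 5282 listed genes, 2808 were higher, 1124 rose and 844 fell. The counts of the single lists above are to be read beside these, and none was tested against them.

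**Figure D4:**
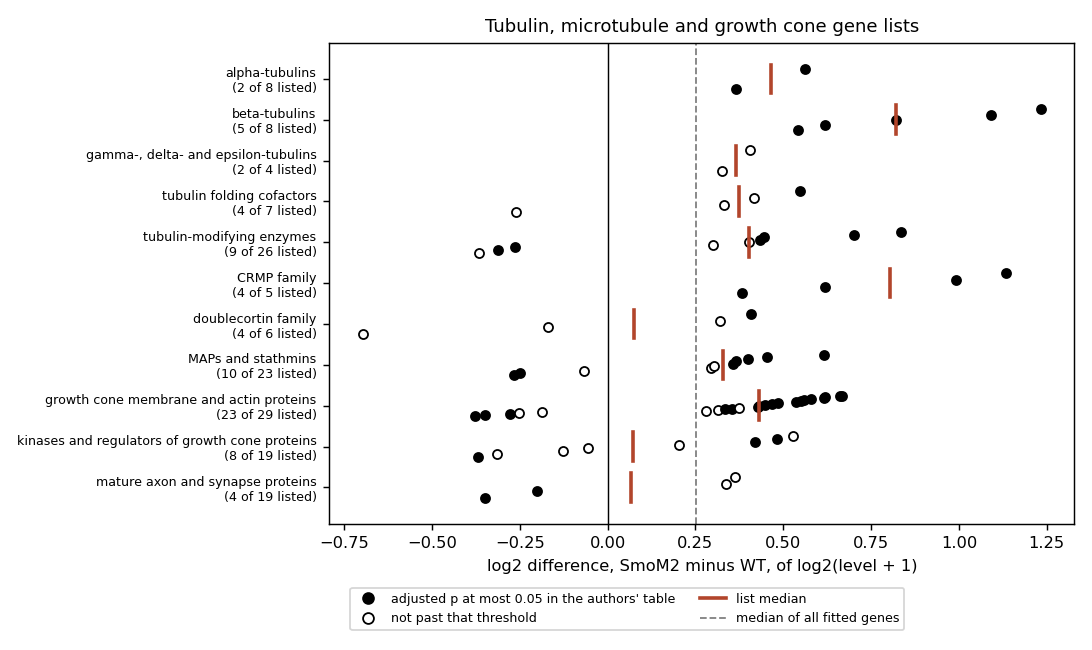
Log2 difference, SmoM2 minus WT (horizontal axis), of every listed gene in 11 lists of tubulin, microtubule, growth cone and synapse genes; filled points pass the authors' threshold of 0.05, red bars are list medians and the dashed line is the median of all fitted genes, 0.25. The medians of the beta-tubulins (0.82) and the CRMP family (0.80) lie farthest to the right, and both lists include members chosen on this contrast. The medians of the kinases and regulators, the mature axon and synapse genes and the doublecortin family (0.07, 0.07 and 0.08) lie left of the dashed line.

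In bulk tissue, more cells that express these genes and more RNA per cell cannot be told apart. Markers of cells that use these genes at high level were therefore summed per sample. Markers of migrating neuroblasts, the young neurons in which Dcx and Tubb3 are classic markers, had 9 of 15 members with a row once Tubb3 and Dcx were set aside, and all 9 were higher. They summed to 724 and 632 in SmoM2, against 490.0 and 493 in WT, and Nrep, which made up most of that sum, read 484 and 431 in SmoM2, against 346 and 330 in WT. Markers of the olfactory bulb, a region rich in adult-born young neurons, had 11 of 12 members with a row and summed to 300.3 and 196 in SmoM2, against 146 and 124 in WT. They were highest in SmoM2 replicate 1, the sample in which Dcx was also highest. Meis2 read 81.3 and 55.4 in SmoM2, against 49.6 and 48.4 in WT, and did not pass. Tshz1 read 17.2 and 9.73 in SmoM2, against 6.86 and 8.53 in WT, and Tbx21, a factor of bulb output neurons chosen here after its values were seen, read 1.99 and 0.03 in SmoM2, against 0.09 and 0.00 in WT. Calb2, the highest of these markers and a large part of each sum, read 123 and 108 in SmoM2, against 70.0 and 52.5 in WT. Cdhr1 read 23.4 and 7.58 in SmoM2, against 4.64 and 4.07 in WT. Doc2g read 21.4 and 3.93 in SmoM2, against 2.44 and 2.55 in WT. Th read 10.3 and 2.65 in SmoM2, against 2.97 and 3.43 in WT. Cdhr1, Doc2g and Th were thus far higher in SmoM2 replicate 1 than in replicate 2. The part of these markers in the differences of the 6 genes was not tested. Without SmoM2 replicate 1 the log2 differences were 0.12 for Dcx, 0.56 for Gap43, 1.04 for Dpysl3, 1.22 for Tubb2b, 0.85 for Tubb3 and 0.64 for Tubb5.

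Markers of cortex and white matter, the labelled tissues, were present in all 4 samples. Cortical excitatory neuron markers, 6 of 12 with a row, summed to 266 and 284 in SmoM2, against 263 and 286 in WT, so the groups overlapped in the sum. 4 of the 6 were higher; Neurod6 fell, at 82.1 and 83.1 in SmoM2, against 115 and 113 in WT, and Cux2 rose, at 36.4 and 41.3 in SmoM2, against 26.4 and 33.2 in WT. Oligodendrocyte precursor markers, 6 of 12 with a row, summed to 216 and 199 in SmoM2, against 159 and 152 in WT. Of these 6, 2 rose and 4 did not pass, beside 21.3% of all listed genes that rose. Myelinating oligodendrocyte markers, 10 of 10 with a row, summed to 2960 and 3330 in SmoM2, against 6185 and 5815 in WT. Mitosis markers, 7 of 12 with a row, were low, at 23.7 and 28.5 in SmoM2, against 13.9 and 12.8 in WT. Only 1 of these 7, Cdk1, rose, and 6 did not pass. Leptomeningeal fibroblast markers summed to 1849 and 1915 in SmoM2, against 1036 and 399 in WT, and choroid plexus markers to 153 and 726 in SmoM2, against 1368 and 1402 in WT, each with libraries of a group far apart. A large part of each sum came from 1 gene: without Ptgds the leptomeningeal sum was 208 and 187 in SmoM2, against 102 and 86.5 in WT, and without Ttr the choroid plexus sum was 81.4 and 108 in SmoM2, against 165 and 239 in WT. The part of these differences in the tubulin and growth cone results was not tested.

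**Figure D5:**
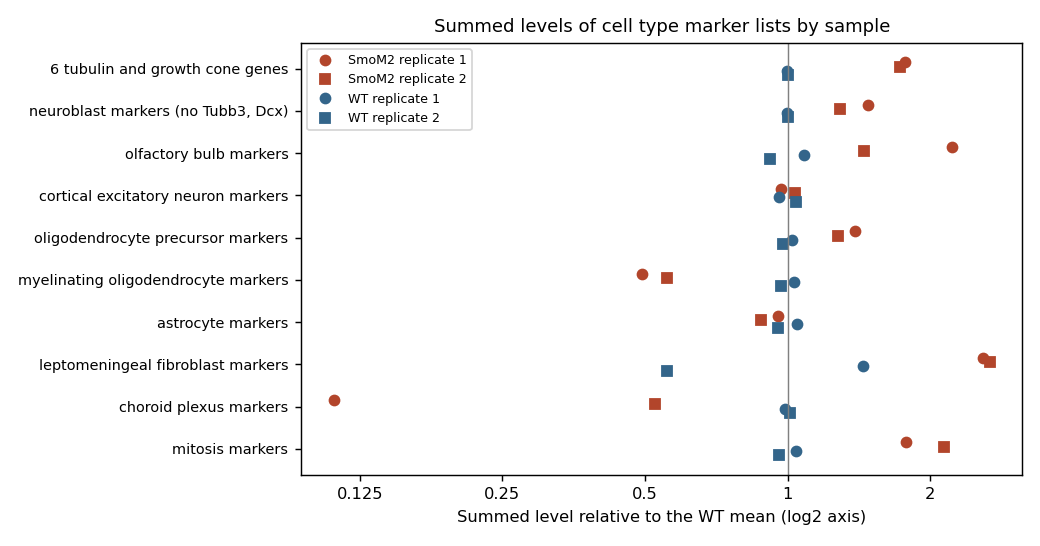
Summed level of the 6 genes and of 9 cell type marker lists in each sample, relative to the mean of the WT samples (horizontal log2 axis); red is SmoM2, blue is WT, circles are replicate 1 and squares replicate 2. The 6 genes stand at 1.77 and 1.73 in SmoM2, neuroblast markers other than Tubb3 and Dcx at 1.47 and 1.29, olfactory bulb markers at 2.22 and 1.45, and cortical excitatory neuron markers at 0.97 and 1.03.

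The listed genes whose profile over the 4 samples lay nearest to the mean profile of the 6, by root mean square distance of log2(level + 1) deviations among 3822 candidates of mean level at least 5, were Ntsr1, Gpsm1, Bean1, Sox12, Nyap1 and Pcsk1n. Distances ran from 0.02 to 0.04. Ntsr1, a neurotensin receptor gene, read 11.2 and 10.3 in SmoM2, against 5.62 and 5.77 in WT. Sox12, a SoxC transcription factor gene, had a log2 difference of 0.78 ± 0.13 (SE, limma). Pcsk1n, an inhibitor of prohormone processing, read 532 and 475 in SmoM2, against 301 and 284 in WT. By the same measure Tubb3 and Gap43 lay nearest to the mean of the members, at 0.08 each, and Dcx lay farthest, at 0.26. With 4 points that share their libraries this likeness is a description, and ranking by Pearson correlation among genes with a log2 difference of at least 0.5 instead named 6 other genes.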

How the data were processed

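Libraries were prepared from 1 ug of total RNA of cortex plus corpus callosum, per the labels' protocols. RSEM, DESeq2 and GRCm38.p6 are named, without roles or versions, per the submitters' processing notes. The deposited table lists 5282 genes whose highest unadjusted p is 0.0500. Its expression levels, deposited by the authors, appear scaled per length and library; no aligner is named in the sources used here. For SmoM2 against WT the authors deposited a fold ratio, the log2 of that ratio, and a raw and an adjusted p-value, the adjusted one over 57010 tests by its values. Columns were tied to samples by the pairing in the series text, and 0 per-sample columns were left unmapped.

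Log2 differences and SEs came from limma 3.58.1 (R 4.3.3), fitted with a trend of variance on mean to log2(level + 1) of the 4845 genes whose mean level reached 1; this scale understates the change of low genes. The code was tested on simulated data. Calls are adjusted p-values of at most 0.05 in the authors' table. The 6 genes and the lists were chosen with earlier results of these data known. The text names the 6 genes, every listed tubulin, CRMP and doublecortin gene, up to 4 called members of each other list with the largest differences and no overlap between groups, up to 3 highest markers of a list, and the 6 nearest genes. Basp1, Marcksl1, Cap2, Gpm6a, Gpm6b, Ttll7, Sirt2, Stmn3, Map7, Map9, Slc12a5, Sncb, Cux2 and Tbx21 were added after their values were seen. Cdhr1, Doc2g and Th are not among the highest markers of their list and were likewise added with their values known. Sharing between genes was counted over 50-base stretches of GENCODE M21 transcripts, as the sources used here give no read length. Alternatives were other pseudocounts, scalings and filters, a replicate block, and leaving out each sample. Added after seeing the data were the counts of higher genes under these settings, the count of limma calls with the block, the omissions for shares among the 3 member tubulins, and the sums without Ptgds or Ttr. Tests planned for read counts were not used, since the table holds levels.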

Additional observations from a re-analysis of the deposited data

How the results depend on the processing

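All 6 genes stayed higher in SmoM2 with quantile normalization and with equal medians. Pseudocounts and omissions could not change these signs, because both SmoM2 levels lay above both WT levels for each gene. The 23 listed growth cone genes did not overlap between groups either, so 18 had to stay higher with each sample left out. Filters and the replicate block cannot change a log2 difference. Scaling moved the sizes. With quantile normalization the log2 difference was 0.66 for Tubb3, 0.46 for Tubb5, 0.98 for Dpysl3 and 0.49 for Gap43, and the median of the 6 was 0.57. With equal medians it was 0.72 for Tubb3 and 0.52 for Tubb5. The authors' deposited log2 fold change was 0.75 for Tubb3, 0.55 for Tubb5 and 0.98 for Dpysl3. With the 3 member beta-tubulins alone as the total, the SmoM2 minus WT share was 6.07 percentage points for Tubb2b, -5.67 for Tubb5 and -0.40 for Tubb3 (from 1.82 of all 5); without single samples that of Tubb3 lay between -1.86 and 1.06, so its sign rests on WT replicate 2. Quantile normalization also moved called genes by over 1.5 times, to 0.87 for Tuba1a, 0.21 for Tuba1b, 0.25 for Dpysl4, 0.19 for Basp1, 0.27 for Marcksl1, 0.24 for Map6, 0.22 for Stmn3, 0.27 for Cdk5r2, -0.42 for Gpm6a and -0.33 for Syt1, and a pseudocount of 5 moved Tubb6 to 0.67.

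The medians of the lists near 0 changed sign. The doublecortin family was -0.036 with quantile normalization, -0.022 with equal medians and between -0.0049 and 0.106 with a sample left out. The kinases and regulators were -0.064, -0.016 and between -0.158 and 0.277, and the mature axon and synapse genes were -0.056, -0.031 and between -0.0559 and 0.1745. The cause was not tested. A replicate block left each log2 difference as it was. Deviations of same-numbered samples correlated at -0.09 and the labels give only numbers, so the samples are not treated as pairs; limma called 6 of 4845 genes without the block and 20 with the replicate block, adjusted over 57010 tests, a count added after seeing the data. Ranking by Pearson correlation among genes with a log2 difference of at least 0.5, which changes both the measure and the candidates, kept 0 of the 6 nearest genes. Depth is unknown, and 2 samples a group limit every SE.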
